A study of Homo sapiens with 2 samples.

Results

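The genes described here are 46 genes of the interferon response and of class I antigen presentation, taken from a list of symbols: 23 interferon-stimulated effectors, 2 RNA sensors, 8 receptors and transcription factors of the pathway, and 13 genes of antigen presentation. At least 1 probe set annotated to a single gene was found for 45 of them, and for STAT2 none was named here. Signals came from SK-N-MC, a human line that the submitters call a neuroepithelioma and that is now placed in the Ewing tumour family, stably transfected by lipofection. The vector control array carried RNA of cells with the empty pCMV-Script vector (vector control 1). The clone array carried RNA of clone 4, in which that vector holds the cDNA of human melanotransferrin for hyperexpression. Each group is 1 line on 1 Affymetrix U133 Plus 2.0 array, so no SD, no p-value and no test between the groups can be given, and differences between clones cannot be told apart from those of the transgene.

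Type I interferons bind a receptor made of IFNAR1 and IFNAR2, and Janus kinases then activate STAT proteins that join IRF9 on the interferon-stimulated response element of target promoters. The induced genes include antiviral effectors such as the IFIT, OAS, MX and IFITM families. Class I antigen presentation uses proteasome subunits, the TAP peptide transporter, tapasin and a heavy chain (HLA-B, HLA-C, HLA-E, HLA-F, HLA-G) paired with beta-2-microglobulin. Many of its genes carry the same type of element and also respond to interferon-gamma.

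The element is shown first because it links the effectors with the presentation genes. The search used the 250 bases before each start site in the RefSeq promoter table (GRCh38.p14), on both strands, for GAAA and GAAA with any 2 bases between them. A form with 1 A fewer, GAANNGAAA, which may share bases with the longer one, was searched as well because the HLA-B and HLA-C promoters hold that form only. Of the 46 members, 35 were matched to an entry; IFIT2, IFITM2, MX2, OAS2, GBP2, IFNAR2, IRF2, IRF3, IRF7, HLA-E and NLRC5 were not. The longer form was present in 22 of the 35 (62.9%), against 1014 of 27305 genes in the table (3.71%). By role it was in 15 of 18 effectors (83.3%), 1 of 2 sensors, 0 of 4 receptors and factors, and 6 of 11 presentation genes (54.5%). GAANNGAAA was present in 14 of the 35 and in 2185 of the 27305 genes. A match describes letters in a window and does not show a binding site.

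The stretches below run 5′ to 3′ along the gene and end at or before the start site, with matched letters in capitals. IFI44L (chr1:78620254-78620389, plus strand), IFITM3 (chr11:320861-320942, minus strand), GBP1 (chr1:89065266-89065365, minus strand) and IFIT1 (chr10:89392477-89392576, plus strand) stand for the effectors, of which the first 3 read higher in the clone and the last read lower. HLA-B (chr6:31357265-31357364, minus strand), HLA-C (chr6:31272174-31272273, minus strand), HLA-F (chr6:29723248-29723347, plus strand), TAPBP (chr6:33314079-33314128, minus strand) and B2M (chr15:44711343-44711442, plus strand) stand for antigen presentation and read lower in the clone. PSMB10 (chr16:67936851-67936901, minus strand) is the presentation gene that read highest relative to control. Capitals mark GAANNGAAA in HLA-B and HLA-C and the longer form in the other genes, on either strand.
IFI44L: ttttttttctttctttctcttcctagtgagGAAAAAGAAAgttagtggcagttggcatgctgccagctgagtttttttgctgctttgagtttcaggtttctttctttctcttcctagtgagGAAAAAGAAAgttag
IFITM3: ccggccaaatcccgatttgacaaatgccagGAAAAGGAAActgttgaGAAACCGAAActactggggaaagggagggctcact
GBP1: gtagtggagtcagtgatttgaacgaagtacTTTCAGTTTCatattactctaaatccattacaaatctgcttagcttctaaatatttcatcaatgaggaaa
IFIT1: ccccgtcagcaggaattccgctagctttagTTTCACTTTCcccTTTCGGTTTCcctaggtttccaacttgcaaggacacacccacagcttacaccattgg
HLA-B: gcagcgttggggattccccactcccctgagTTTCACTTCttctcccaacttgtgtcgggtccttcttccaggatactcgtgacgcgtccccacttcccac
HLA-C: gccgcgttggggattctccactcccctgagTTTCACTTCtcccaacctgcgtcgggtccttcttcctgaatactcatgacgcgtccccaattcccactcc
HLA-F: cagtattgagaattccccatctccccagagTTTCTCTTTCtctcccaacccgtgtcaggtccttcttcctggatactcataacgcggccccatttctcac
TAPBP: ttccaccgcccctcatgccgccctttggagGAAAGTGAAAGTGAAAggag
B2M: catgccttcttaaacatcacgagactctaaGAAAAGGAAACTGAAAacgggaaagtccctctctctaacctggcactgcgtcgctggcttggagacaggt
PSMB10: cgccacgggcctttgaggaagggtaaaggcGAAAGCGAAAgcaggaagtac

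Values are linear probe set signals as deposited, whose trimmed mean was 1000.12 on each array, so both are on 1 scale. A gene is represented by its brightest single-gene probe set, and a ratio is clone over control. Signals under 208, a floor set from genes this cell type should not express, count as not measured, and a gene under it on 1 array has only a bound. Directions are relative to all genes: centring on the hybridisation spikes or the poly-A spikes in place of the deposited scale shifted the log2 median over all genes by 0.49 and -0.56, respectively. The probe sets behind the floor had medians of 67.4 (control) and 44.0 (clone), and 11.3% of measured genes were under the floor in the clone alone against 3.49% in the control alone. The melanotransferrin probe set annotated to the inserted transcript read 18.4 and 4449.4, at least 21.4-fold higher. Of 3 further melanotransferrin probe sets, 1 was above the floor at 245.8 and 209.3, and the others were below it at 19.2 and 10.8 and at 64.4 and 125.5. All 13 Ewing tumour markers with a probe set were above the floor on both arrays, among them CD99 at 31465 and 32239.

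Of the 45 genes, 8 were below the floor on both arrays, where 7112 of 19775 genes of the arrays were. Another 33 were above it on both arrays. The other 4 were above it on the control array only, where 11.3% of 12663 measured genes were. Over the 37 measured members, 1 was at least 2-fold higher in the clone, where 1.21% of 12663 measured genes were, and 0 were at least 2-fold lower, where 1.90% were. At 1.5-fold the counts were 2 higher (5.41% of members against 5.38% of all measured genes) and 5 lower (13.5% against 8.43%). By size the list thus held about the share of higher genes that the arrays held overall. The median log2 ratio of the measured members was -0.13 relative to that of all measured genes. Among probe sets of 1 gene, log2 ratios had a pooled SD of 0.35 over 5387 genes of the arrays and 0.28 over 17 members. This SD describes disagreement among probe sets on the same 2 arrays and serves below only as a scale of size. It does not measure variation between cultures, clones or repeat arrays.

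**Figure D1:**
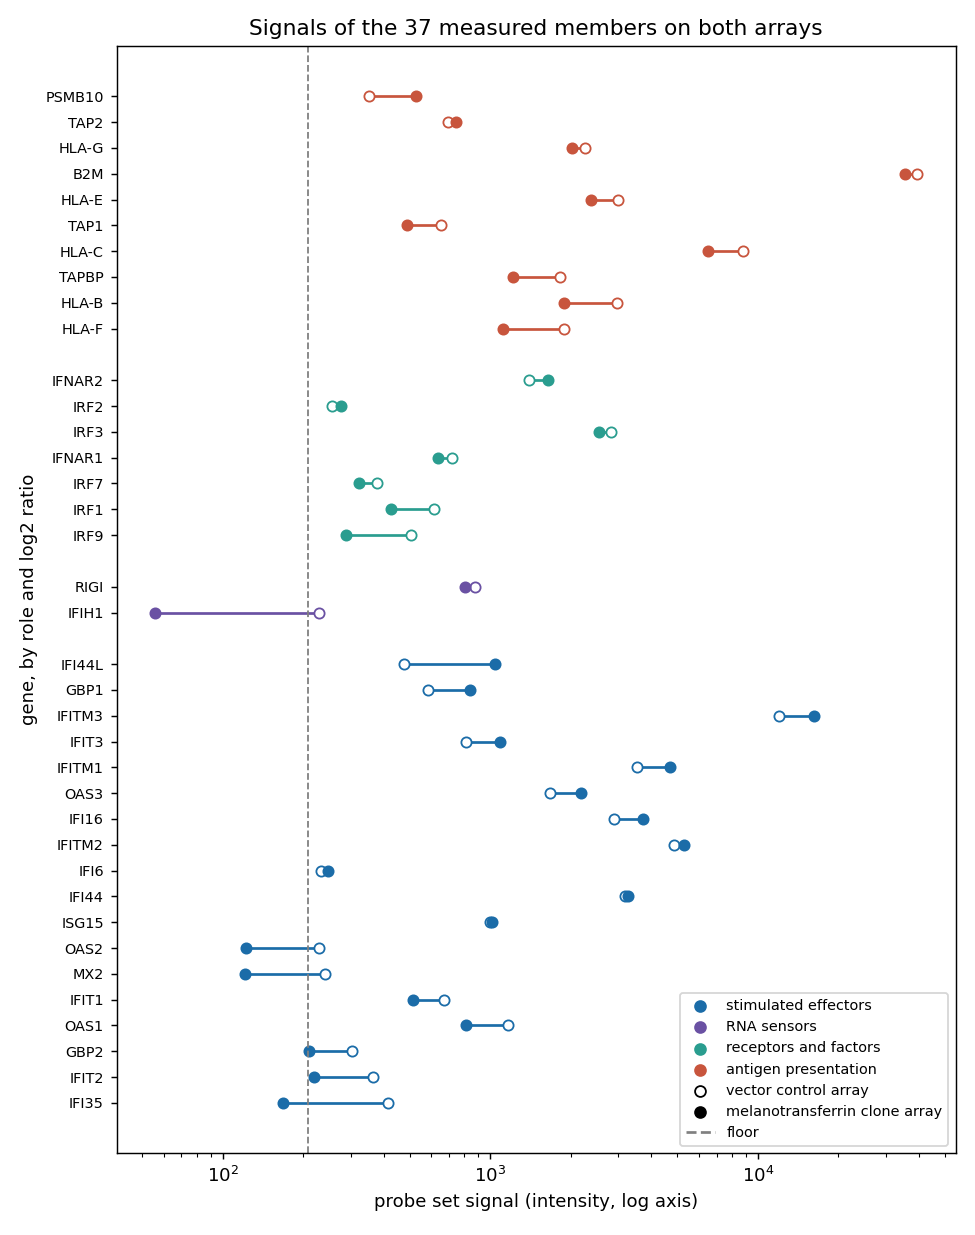
Signal of each measured member on the vector control array (open circle) and the clone array (filled circle), on a log axis in intensity units, grouped by role and ordered by ratio; the dashed line is the floor of 208. All 5 HLA heavy chains moved to lower signal from control to clone, and IFI44L moved to higher signal. On the clone array 4 of the 37 measured members crossed under the floor, where 11.3% of all measured genes did.

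Effectors and presentation genes had medians on opposite sides of the median of all measured genes, below which 50.0% of genes lie. Of 18 measured effectors, 11 lay above it and 7 below, with a relative median of 0.086, close to that of all genes. The 11 include the IFITM genes, which these values may not separate. On second probe sets IFIT3 and OAS3 lay below it, and OAS1 above it. The 26 other measured interferon-stimulated genes had a relative median of 0.018. Of 10 measured presentation genes, 2 lay above and 8 below, with a relative median of -0.36. The 7 measured receptors and factors had a relative median of -0.16, with 2 above and 5 below, and both sensors lay below. The medians of effectors and presentation genes thus differed by 0.44 on the log2 scale. The presentation median stood at -0.15 over 4 genes without probe sets of shared sequence, and at -0.14 without the HLA heavy chains. With sensors, receptors and factors added to the effectors, the relative median of that wider arm was -0.10, on the same side as presentation. This is a description of 2 arrays, and members are not replicates.

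**Figure D2:**
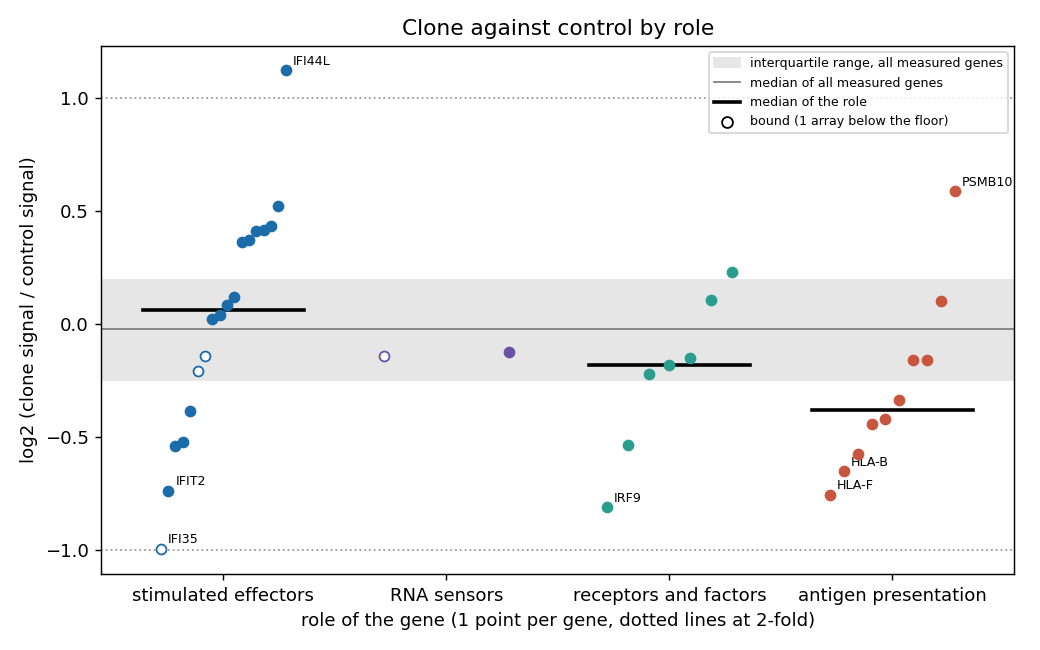
Log2 ratio of clone over control for each measured gene by role, with the median of each role with 4 or more genes as a black bar, the interquartile range of all measured genes as a grey band, and bounds as open circles. The effectors spread to both sides of the band, from -0.99 (a bound, IFI35) to 1.13 (IFI44L), and 8 of 10 presentation genes lie below the line for all genes.

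Among the effectors IFI44L, an interferon-induced gene with antiviral activity in cell culture, was the member with the highest ratio. Its only probe set read 477.3 in the vector control against 1041.7 in the clone, 2.18-fold higher, a ratio above that of 99.2% of measured genes. Of 1931 genes above the floor on both arrays with the lower signal under 500, 3.73% were at least 2-fold higher. Its neighbour and paralog IFI44 read 3173.9 and 3270.5, a log2 ratio of 0.043, and the second IFI44 probe set gave 0.069. With 1 probe set, the IFI44L value has no second reading on these arrays.

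The IFITM proteins, which block the entry of enveloped viruses at membranes, all read higher in the clone. IFITM3 read 11990 and 16227, a log2 ratio of 0.44. IFITM1 read 3539.1 and 4707.6, at 0.41, and IFITM2 read 4861.1 and 5278.4, at 0.12. Of these, IFITM3 and IFITM1 lay past the pooled SD of 0.35 and IFITM2 did not, and all 3 were below 0 when the arrays were centred on the poly-A spikes. The 3 genes are close paralogs on chromosome 11, and each of these probe sets carries an ID that marks shared sequence. A further probe set, annotated to IFITM1 and IFITM2 together and not used for either gene, read 3932.2 and 4462.7, so the 3 genes may not be separated by these values.

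GBP1, a guanylate-binding GTPase, read 583.8 and 838.5 and its 3 probe sets, all higher, lay between 0.070 and 0.54 on the log2 scale. GBP2, also on chromosome 1, read 304.6 and 209.8, with a log2 ratio of -0.54, close to the floor on the clone array. On their brightest probe sets these related GTPases stood on opposite sides of the median, each by more than the pooled SD, but the second brightest of GBP1, at 0.070, lay within it.

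The IFIT genes, whose proteins bind viral RNA, lie together on chromosome 10, and 2 of the 3 measured read lower. IFIT2 read 363.5 and 218.2, a log2 ratio of -0.74, and IFIT1 read 672.7 and 515, at -0.39. IFIT3 read 812.1 and 1086 on its brightest probe set, at 0.42, but 647.6 and 575.7 on the other, at -0.17, so its direction is not settled by its own probe sets. IFIT5 was below the floor on both arrays. For IFIT2 the clone signal lay just above the floor.

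The oligoadenylate synthetases, which activate RNase L on sensing double-stranded RNA, lie together on chromosome 12. OAS3 read 1675.2 and 2172.6 on its brightest probe set, a log2 ratio of 0.38. Its other probe set went the other way, at 222 and 93.5, below the floor in the clone. OAS1 read 1166.7 and 812.8 on its brightest probe set, at -0.52, and 660.4 and 761.5 on the other, at 0.21. OAS2 read 228.9 and 122, so the clone signal was below the floor and only a bound of -0.14 can be given. The probe sets of OAS1 differed from each other by more than either differed from 0, and OAS1 has no settled direction here.

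IFI16, a nuclear DNA sensor of the interferon-inducible family, read 2888 and 3712.9, with log2 ratios of 0.36, 0.27 and -0.23 over 3 probe sets. ISG15, a ubiquitin-like modifier, read 995.9 and 1013.5, a log2 ratio of 0.025. IFI6, a mitochondrial protein, read 232.7 and 246.9, at 0.086 and near the floor. ISG15 and IFI6, both widely used as marker genes of an interferon response, thus lay within the pooled SD of 0.

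IFI35, a leucine zipper protein, went from 413.9 to 168, below the floor on the clone array, and was at least 1.99-fold lower. MX2, a dynamin-like restriction factor, read 240.2 and 121.3, with a bound of -0.21. The effectors below the floor on both arrays were MX1 at 85.3 and 70, IFI27 at 42.6 and 68.1, ISG20 at 102.1 and 22.8, BST2 at 87.4 and 34.9, and IFIT5 at 21 and 7.9. Several classical interferon-induced genes were therefore not measurable on either array.

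Of the RNA sensors, DDX58 had no settled direction across its probe sets, and IFIH1 had only a bound, with a control signal near the floor. DDX58 (now RIGI), the RIG-I helicase that senses viral RNA, read 876.9 and 804.8 on its brightest probe set, a log2 ratio of -0.12. Its other 2 probe sets were dimmer and read 284.5 and 404.4, and 215.3 and 385.2, at 0.51 and 0.84. RIGI lies on chromosome 9, whose 504 measured genes had a relative median of 0.46, and whether this bears on RIGI was not tested. IFIH1, the MDA5 helicase, read 229.5 and 55.6, with a bound of -0.14.

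Both chains of the type I receptor were measured. IFNAR2 read 1394.6 and 1638.2, and its 3 probe sets, all higher, lay between 0.17 and 0.39. IFNAR1 read 720.8 and 636.2, with values from -0.18 to 0.20 over 3 probe sets. Neither receptor chain passed the pooled SD on its brightest probe set, and both genes lie on chromosome 21, whose relative median was 0.021.

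Among the transcription factors IRF9, the DNA-binding partner of the STAT complex, read 506.7 and 289.2, 1.75-fold lower, and 3.95% of measured genes had a lower ratio. A probe set annotated to both RNF31 and IRF9, not used for either, went the other way, at 273.7 and 484.4. IRF1, an activator of presentation genes, read 613.6 and 424.3, a log2 ratio of -0.53, and its second probe set gave -0.11. IRF7 read 376.7 and 323, IRF3 2827.8 and 2553.9, and IRF2, a repressor of the family, 256.6 and 276.6, log2 ratios of -0.22, -0.15 and 0.11. On their brightest probe sets IRF9 and IRF1 were the 2 factors past the pooled SD, both lower. The second IRF1 probe set lay within it. With the floor 2 times as high, IRF9 had only a bound of -0.28.

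The heavy chains of class I read lower in the clone on their brightest probe sets, and HLA-G was mixed across its probe sets. HLA-B, a classical heavy chain, read 2967.2 and 1892, 1.57-fold lower, and its 3 probe sets had log2 ratios of -0.65, -0.45 and -0.38. HLA-C, the other classical chain listed, read 8823 and 6497, 1.36-fold lower, and its 4 probe sets had log2 ratios between -1.03 and -0.44. On the probe set at the low end HLA-C read 3193.2 and 1564.5, 2.04-fold lower. Every probe set of these classical chains read lower in the clone.

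Of the non-classical chains, HLA-F read 1886.7 and 1119.2, 1.69-fold lower, with -0.75 on both probe sets above the floor. HLA-E, the ligand of NKG2 receptors, read 2991.8 and 2370.8, and its 3 probe sets lay between -0.49 and -0.34. HLA-G, known from trophoblast, read 2250.4 and 2017.8, and its 4 probe sets split at -0.38, -0.16, 0.22 and 0.26. Centred on the hybridisation spikes, HLA-B and HLA-F stayed below 0 (-0.15 and -0.25), while HLA-C and HLA-E were at 0.060 and 0.17.

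These HLA readings are not independent of each other. Of the 17 probe sets annotated to 1 of the 5 heavy chains, 15 have an ID ending in _x_at, which marks probes that can bind more than 1 transcript. The other 2 are gene-specific. That of HLA-E passed the floor and read 1068.3 and 793.5, a log2 ratio of -0.43. That of HLA-F was below the floor at 44.1 and 102.9. Of the 15 _x_at probe sets 13 read lower and 5 were at least 1.5-fold lower, against 54.6% and 10.2% of the 1730 _x_at probe sets that passed the floor in both lines. Which class I transcripts each of them bound was not tested, since probe sequences were not used.

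**Figure D3:**
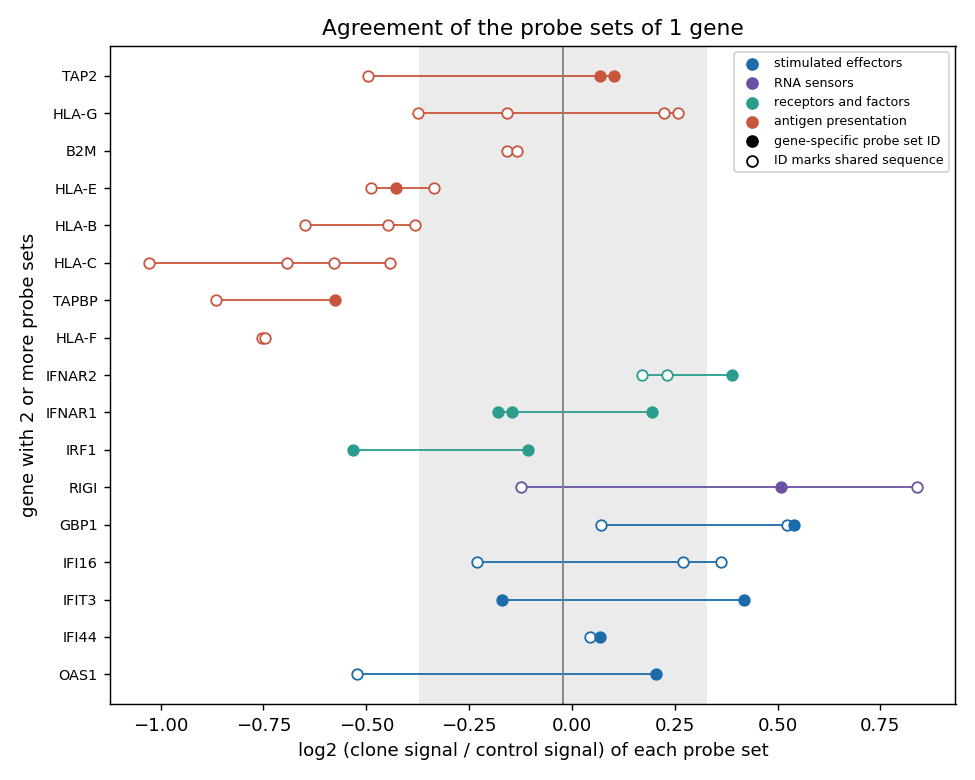
Log2 ratio of each probe set that passed the floor in both lines, for the 17 members with 2 or more, with filled circles for gene-specific IDs and open circles for IDs that mark shared sequence; the grey band is the median of all genes plus and minus the pooled SD of 0.35. All HLA-B, HLA-C, HLA-F and TAPBP points lie to the left of the band, and the points of OAS1, RIGI and HLA-G are split.

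The partner of the heavy chains, beta-2-microglobulin (B2M, chromosome 15), read 39437 and 35348, with log2 ratios of -0.16 and -0.13 on its 2 probe sets that passed the floor. TAPBP, the tapasin chaperone that loads peptide, read 1817.5 and 1219.5, 1.49-fold lower on a gene-specific probe set, and -0.87 on the log2 scale on the other. TAP1, a subunit of the peptide transporter, read 655.1 and 489.5, at -0.42. Its partner TAP2 read 693.3 and 743.7, at 0.10, with 0.069 and -0.50 on other probe sets. TAPBP thus read lower on both of its measured probe sets. TAP1 read lower on its only probe set, and TAP2 had no settled direction across its own.

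The inducible proteasome subunits were mostly not measurable. PSMB8 read 18.5 and 7.1 and PSMB9 18.9 and 22.6, both far below the floor. PSMB10 read 351.2 and 528.8, 1.51-fold higher, the only presentation gene past 1.5-fold in that direction. NLRC5, the transactivator of class I genes, read 28.9 and 76.8, below the floor on both arrays. So 10 of the 13 presentation genes were measured.

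Several presentation genes could be read on more than 1 probe set. Of 8 such genes, with at least 2 that passed the floor in both lines, 6 were lower on all of them (B2M, HLA-B, HLA-C, HLA-E, HLA-F and TAPBP), where 23.8% of 5387 genes of the arrays were. Of 5 such effectors, 2 were higher on all (GBP1 and IFI44), where 21.4% of genes were, and 3 were split. The HLA count rests largely on shared probes, as described above.

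Of the presentation genes 8 of the 10 measured lie in the stretch of chromosome 6 from HLA-F to TAPBP. These had a relative median of -0.41. The 82 other measured genes of the stretch had a relative median of -0.11, with 54 below the median of all genes and 28 above. Of these 82, 3 were at least 2-fold lower and 2 higher, where 1.90% and 1.21% of all measured genes were. Chromosome 6 as a whole had a relative median of 0.0027 over 672 genes. The median of the members in the stretch was thus below that of their neighbours, and that of the neighbours below that of the chromosome. The difference has no test.

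**Figure D4:**
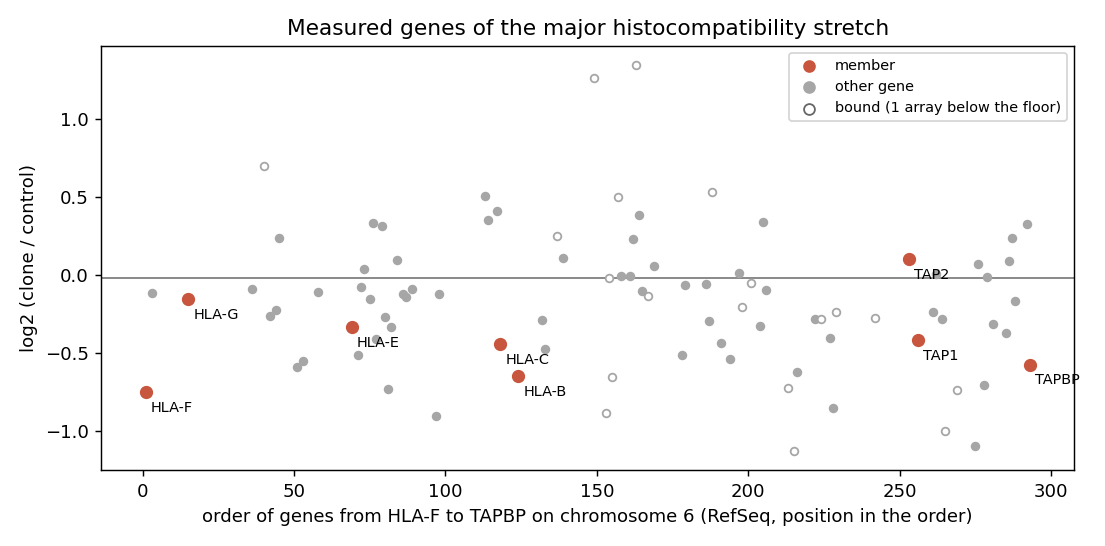
Log2 ratio of clone over control for measured genes in their RefSeq order from HLA-F to TAPBP on chromosome 6, with members in red, other genes in grey and bounds as open circles. Of the 8 members 7 lie below the line for all genes, TAP2 lies above it, and the grey points scatter on both sides with 54 of 82 below.

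Markers of other cell types are given beside these values, since leukocytes and endothelial cells carry much class I. Of 14 leukocyte markers with a probe set 10 were below the floor on both arrays, CD3D, CD14 and LYZ among them. The summed signal of the list was 17868 and 15925, most of it from PTPRC at 15581 and 13943. The other leukocyte marker measured in both lines, CD79A, went the other way, at 837 and 1115.3. Of 10 endothelial markers 6 were below the floor on both arrays, VWF and KDR among them, and the list summed to 2637.8 and 1952.5. PECAM1 read 435.7 and 235, EMCN 930.4 and 597.6 and ENG 686.1 and 517, log2 ratios of -0.89, -0.64 and -0.41, while CDH5 read 169.2 and 424.8. Of 11 fibroblast markers 9 were measured, 5 above the median of all genes and 4 below, and the list summed to 72111 and 64574. COL1A1 and PDGFRB had log2 ratios of -0.60 and -0.63, and COL1A2 of 0.65. Both arrays carried RNA of the SK-N-MC line, so a marker signal here does not show that cells of that type were present. The bearing of these genes on the class I values was not tested. In RNA from whole cultures, fewer expressing cells and less RNA per cell cannot be told apart.

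The rest of the pathway was described by lists. Of 18 interferon ligands with a probe set, 17 were below the floor on both arrays, IFNB1 among them at 124.2 and 13.4. IFNL1, a type III interferon, was the exception, at 418.7 and 138.9, at least 2.01-fold lower on its brightest probe set. No interferon transcript was thus above the floor in the clone on the probe sets used.

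Of 19 measured genes of signalling and sensing outside the list, SOCS3, a feedback inhibitor of cytokine receptors, was the only gene past 2-fold. It read 646 and 284.7, 2.27-fold lower, and makes 5.26% of the 19, where 1.90% of all measured genes were at least 2-fold lower. SOCS1, the related inhibitor, read 461 and 279.3, and IKBKE, a kinase upstream of IRF3, 593.7 and 302.8, log2 ratios of -0.72 and -0.97. The kinase JAK1 read 23662 and 23663, and TYK2 1734.4 and 1541.8. IFNGR2, a chain of the interferon-gamma receptor, read 6359.9 and 4331.3, at -0.55, and its partner IFNGR1 read 4767.4 and 5151.9, at 0.11. The relative median of these 19 was -0.085.

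Of 26 other measured interferon-stimulated genes, 1 was at least 2-fold higher and 1 at least 2-fold lower. That is 3.85% each, where 1.21% and 1.90% of all measured genes were. HERC5, the ligase that attaches ISG15 to proteins, read 1006.3 and 2116.2, 2.10-fold higher. PML, the scaffold of nuclear bodies, read 611.5 and 284.5, 2.15-fold lower. EIF2AK2, the kinase PKR, read 3467.5 and 3974.8, and ADAR, an RNA-editing deaminase, 13769 and 12450. Their relative median was 0.018, so these genes too were spread to both sides.

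Of 16 other measured genes of presentation, 0 passed 2-fold in either direction and the relative median was -0.080. The chaperones that fold the heavy chain all read lower: CALR 7466.1 and 5856.3, CANX 32258 and 25530, and PDIA3 11864 and 9922.4, log2 ratios of -0.35, -0.34 and -0.26. CALR lay at the edge of the pooled SD of 0.35, and CANX and PDIA3 lay within it. ERAP1, the aminopeptidase that trims peptides, read 528.7 and 284.1, 1.86-fold lower. The constitutive proteasome subunits PSMB5, PSMB6 and PSMB7 had log2 ratios of 0.075, -0.29 and 0.42, the last on chromosome 9. RFX5, a factor of class I and II promoters, read 3742.5 and 4055.

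The promoter letters were set beside the ratios. Among the 10 measured effectors with the longer form, 9 read higher and 1, IFIT1, read lower, with a median log2 ratio of 0.39. Of the 9, IFI44, ISG15 and IFI6 lay within the pooled SD of 0.35. IFIT3 and OAS3 went the other way on their second probe sets. The measured effectors IFIT2, GBP2, MX2 and OAS2, which read lower (MX2 and OAS2 as bounds), and IFITM2, which read higher, had no promoter entry. Among the 6 measured presentation genes with the same letters, 2 (PSMB10 and TAP2) read higher and 4 (B2M, HLA-F, TAP1 and TAPBP) lower. Their median was -0.29, and TAP2 was split over its probe sets. Of 313 measured genes outside the list with these letters, 49.5% read higher. Of the other measured effectors, 3 had an entry without the letters and were 1 higher and 2 lower, so no comparison is drawn among effectors. Over all roles, the 17 measured members with the letters were 11 higher and 6 lower, with a median log2 ratio of 0.086. The 10 with an entry but without the letters were 1 higher and 9 lower, with a median of -0.48. Roles were unevenly spread over these sets, and this split has no test either. The letters TTCNNNGAA of the interferon-gamma-activated site, searched in the same windows and free to share bases with the other forms, were in 10 of 35 members (28.6%) and in 8.09% of all genes. Of the 6 measured members that hold them, IFITM1 read higher and IFI35, OAS1, IRF1, IRF9 and TAP1 lower on their brightest probe sets. Their median log2 ratio was -0.53 (IFI35 at its bound), and OAS1 has no settled direction. IFITM1 and TAP1 also held the longer form, and IFI35, OAS1, IRF1 and IRF9 did not. Outside the list, 47.4% of 740 measured genes with these letters read higher, against 48.0% of 9468 without them. The 21 measured members with an entry but without these letters were 11 higher and 10 lower. This motif was added after values were seen, and the split has no test.

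**Figure D5:**
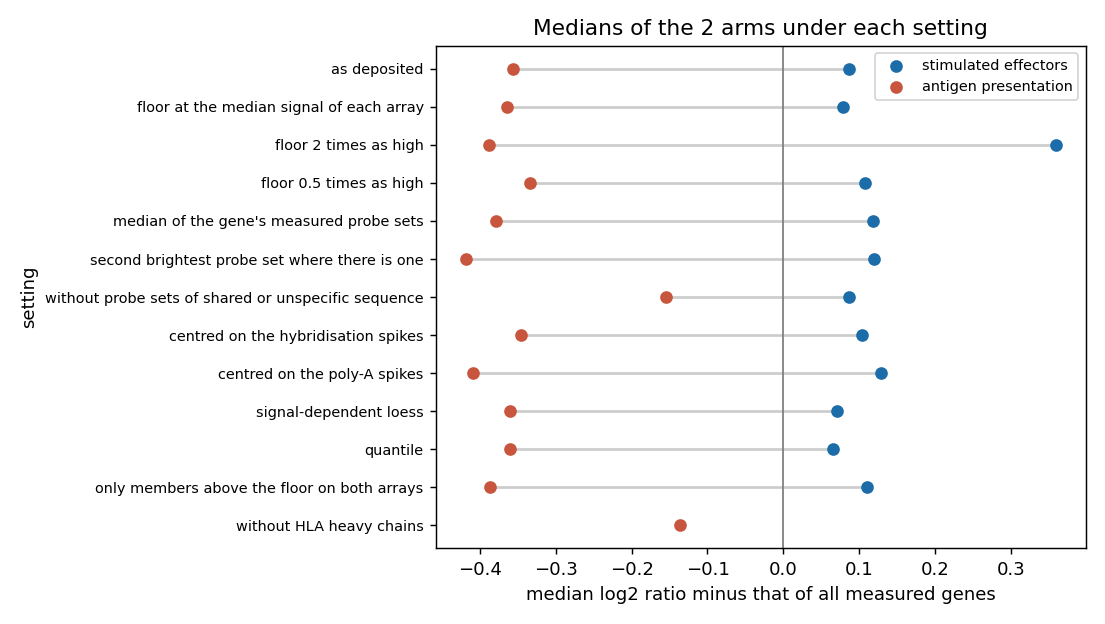
Median log2 ratio relative to all measured genes for the stimulated effectors (blue) and the presentation genes (red) under the deposited values and each alternative setting. The blue points lie at 0.065 to 0.36 and the red points at -0.42 to -0.14, so they did not cross in any setting plotted. The highest blue point, with the floor 2 times as high, rests on 12 effectors after dim genes dropped out. The narrowest gaps were 0.22 without the HLA heavy chains, with the effectors as deposited, and 0.24 without probe sets of shared sequence.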

How the data were processed

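The authors deposited 1 linear intensity value (signal) per probe set and array for 54675 probe sets, made with GCOS 1.3 per the submitters' processing notes. The sources used here name no summary algorithm and no target for the scaling. Deposited values were used unchanged. Probe sets were named from the 2016 platform annotation (41097 with 1 symbol, 1801 with several, 11777 with none here) and symbols updated by gene ID through RefSeq GRCh38.p14. The floor of 208 was the 90th percentile of 191 probe sets for olfactory receptors, taste receptors and keratin-associated proteins over both arrays. Below it on 1 array, the ratio was taken against the floor. Calls used a ratio of 2, and list medians needed 4 measured members. With 1 array per group no test was run, and the number of arrays limits the precision. All 46 members are named, by role; other genes come from fixed lists, as those past 2-fold or as examples, and IFNL1, SOCS1 and IKBKE were added after their values were seen. The shorter promoter form, the enhancer letters and the interferon-gamma-activated site were added after the promoter table was seen. Members and lists were chosen with earlier results of these data known. The code was tested on simulated data. Scripts ran under Python 3.11.15, numpy 2.4.6, pandas 2.3.3, statsmodels 0.14.6 and matplotlib 3.10.9.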

Additional observations from a re-analysis of the deposited data

How the results depend on the processing

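No paired analysis was possible because each group holds 1 array. Of the 23 listed effectors, 18 were measured as deposited and 12 to 18 in the alternatives. The relative median of the measured effectors stayed above 0 in all 11 alternatives run for it. That of presentation genes stayed below 0 in all 12, and the difference of these medians stayed above 0 in all 13. The floor 2 times as high gave 0.36 for effectors and 0.75 for the difference, with 12 effectors left. It took out IFIT2, IFI35, MX2, OAS2 and GBP2, which lay below the median of all genes as deposited, and IFI6, which lay above it. Without probe sets of shared sequence, presentation stood at -0.15 over 4 genes, the difference at 0.24 and all members at -0.025. With the second brightest probe set, all members stood at -0.051. Settings chosen after seeing the data gave, without HLA heavy chains, -0.14 for presentation and 0.22 for the difference, and 0.25 for the difference with sensors and signalling added to the effectors. That wider arm had a relative median of -0.10, on the same side as presentation, with 13 genes above and 14 below. The count of members at least 2-fold higher, 1 as deposited, was 3 centred on the hybridisation spikes, 0 centred on the poly-A spikes, 2 at 1.5-fold and 0 at 3-fold. The count at least 2-fold lower, 0 as deposited, was 10 centred on the poly-A spikes, 5 at 1.5-fold, 2 with the floor 0.5 times as high, 1 with each array's own median as floor and 1 after quantile scaling. The threshold and the shift of all genes set the counts at 1.5-fold, 3-fold and the spike settings by construction. In the other settings the lower genes were IFI35 and IFIH1, whose deposited ratios were bounds set by the floor. They were at -1.30 and -1.14 with the floor 0.5 times as high. IFI35 was at -1.20 with each array's own median as floor and at -1.02 after quantile scaling. The cause was not tested for the other changes. Of 376 values for single members under the alternatives, 295 moved by less than the pooled SD, 81 by more. The sign turned in at least 1 setting for 25 of 37 members, and without the spike settings for 7: IFIT3, OAS1, OAS3, RIGI, IFNAR1, TAP2 and HLA-G. IFI44L ranged from 0.52 (poly-A spikes) to 1.63 (hybridisation spikes). Signals near the floor limit IFIT2, GBP2, IFI6, IRF2, IRF9 and the 4 genes with bounds.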

Other observations

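Class II genes, which present peptides from outside the cell and are normally made by immune cells, were mostly unmeasured. Of 12 listed genes 7 were below the floor on both arrays, HLA-DRA at 35.9 and 36.1 and CD74, the invariant chain, at 183.5 and 40 among them. HLA-DMA, a peptide-loading chain, read 872.1 and 873.5, and HLA-DMB 838.6 and 712.4, log2 ratios of 0.0023 and -0.24. CIITA, the transactivator of class II genes, read 280.8 and 119.7, and HLA-DOA 416.7 and 37, both below the floor in the clone, with HLA-DOA at least 2.00-fold lower. HLA-DRB1, a chain of HLA-DR, read 251.5 and 139.5, with a bound of -0.27. The 2 HLA-DM chains were thus the listed class II genes measured in both lines.

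GGGGA and TCCCC with 1 base between them, the letters of an enhancer site known from class I promoters, were found in the HLA-B stretch and in no other member with an entry, and in 0.0806% of all genes. The searched HLA-C and HLA-F windows did not hold those exact letters.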
